A study of Mus musculus with 24 samples.

Results

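The first 3 days of differentiation of wild-type (WT) mouse embryonic stem cells (ESCs) were followed on 8 arrays, 4 of day 3 against 4 of day 0, out of 24 in the study. The members were chosen by their labels alone: WT cells, and a title naming day 3 or day 0. WT J1 and WT V6.5, an ESC line from an inbred mouse strain and one from a cross of strains, each gave 2 arrays on each day. On day 3 the cells were embryoid bodies (EBs), aggregates in which ESCs differentiate, started from ESCs depleted of feeder cells in hanging drops without LIF and moved to suspension culture after the first 2 days. On day 0 they were ESCs kept with medium holding LIF, a cytokine that maintains self-renewal, on embryonic fibroblasts inactivated with mitomycin C. The same lines on day 7 (4 arrays) and Eed knockout (KO) cells of lines E14 and J1 on days 3 and 0 (4 arrays each) are used for comparison. KO cells lack EED, a core subunit of Polycomb repressive complex 2. WT cells carry no modification named in the labels, each line stands for its genotype as 1 clone, and whether both arrays of a line and day were separate cultures is not stated. The p-values therefore measure the spread between arrays, which may be technical. In the fit of both lines, this spread comes from all 24 arrays, day 7 and KO included. It also holds any difference of the change between lines.

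ESCs held with LIF resemble the naive epiblast of the blastocyst. LIF acts through its receptor and the transcription factor STAT3 on factors such as KLF4, and these work with OCT4 (gene Pou5f1), SOX2 and NANOG. Once LIF is withdrawn, ESCs pass through a state like the epiblast after implantation, called formative or primed, which keeps OCT4 and SOX2, gains FGF5 and the DNA methyltransferase DNMT3B, and can then form the primitive streak or neural tissue.

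Expression is given as log2 RMA values per gene, so a difference of 1 is 2-fold. A gene was called, and is said to have risen or fallen, at an adjusted p under 0.05 from limma and a change of at least 2-fold. In these arrays 1015 olfactory receptor genes, not known to be active in such cells, had a median level of 4.65 and a 95th percentile of 6.33, and none of them was called. Across genes, both arrays of a line on a given day had r between 0.990 and 0.994, with 21 to 138 genes at least 2-fold apart. Eed read 9.60 to 10.36 in the WT arrays of day 3 and 10.28 to 11.02 in those of day 0. Its change of -0.70 (SE 0.188, adjusted p = 0.0137) was under 2-fold.

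Between day 0 and day 3, 22 of 24 naive pluripotency genes and 6 of 18 genes of the LIF pathway fell in WT cells. At the same time 7 of 26 formative epiblast genes and the 5 genes Mir302a to Mir302d and Mir367 rose, and the core factor Pou5f1 was not called. Of 19938 genes, 190 rose (0.953%) and 217 fell (1.09%) on day 3, or 407 in all (2.04%). Of these, 164 and 198 had all 4 day 3 arrays on 1 side of all 4 day 0 arrays, as 7.14% of all genes did upward and 7.2% downward. A change of 4-fold or more was seen for 15 genes that rose and 26 that fell. All 407 genes changed in the same direction in J1 and in V6.5, but both lines entered the choice of these genes, so this is no test. With each line tested alone, 86 genes rose and 114 fell in both. The median change of all genes was near 0 (-0.0022).

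**Figure D1:**
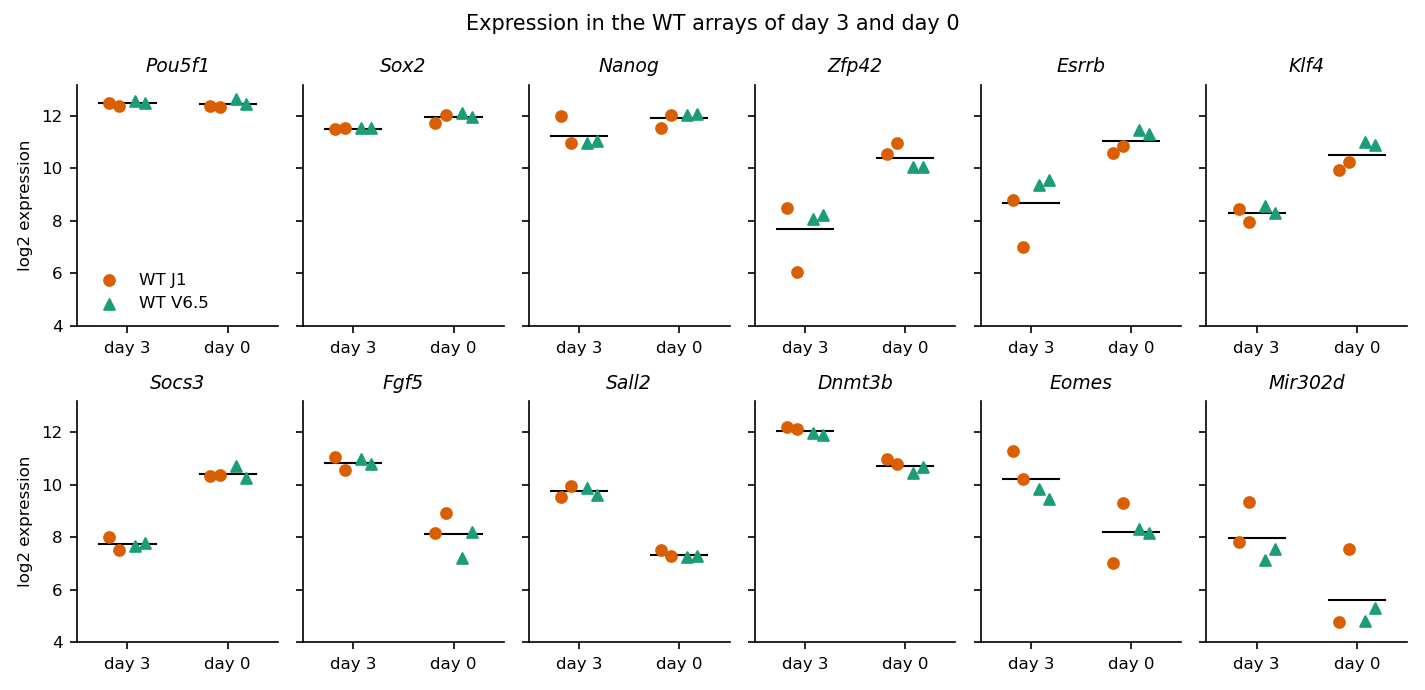
Log2 expression (y axis) of 12 genes in each WT array of day 3 (left) and day 0 (right). Circles are WT J1 arrays, triangles WT V6.5 arrays and bars the mean of 4 arrays. Pou5f1 overlaps between days, Zfp42, Esrrb, Klf4 and Socs3 are lower in every day 3 array, and Fgf5, Sall2 and Dnmt3b are higher in every day 3 array. In Eomes and Mir302d, WT J1 day 0 replicate 2 lies above the other 3 day 0 arrays.

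Of the 3 core factors, none was called. Pou5f1 read 12.48, 12.39, 12.56 and 12.50 on day 3 against 12.37, 12.35, 12.65 and 12.46 on day 0, the J1 arrays being given before the V6.5 arrays here and in the following lists of 4 values. The 2 days overlapped, and the change was 0.03 (SE 0.149, adjusted p = 0.960). Sox2, the partner of OCT4 on DNA, read 11.503, 11.53, 11.53 and 11.53 on day 3 against 11.74, 12.05, 12.11 and 11.98 on day 0. All its day 3 arrays lay below all day 0 arrays, but the change was -0.45 (SE 0.356, adjusted p = 0.531). The spread in this fit includes the day 7 arrays, and with the 8 WT arrays of days 0 and 3 alone the adjusted p was 0.00948, still under 2-fold. Nanog read 12.001, 10.96, 10.97 and 11.06 on day 3, against 11.56, 12.06, 12.03 and 12.08 on day 0. Its change was -0.68 (SE 0.254, adjusted p = 0.0836). WT J1 day 3 replicate 1 stood with the day 0 arrays, and the change was -0.33 in J1 and -1.04 in V6.5.

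Among 21 measured genes of the core pluripotency list, 0 rose and 4 fell, with a median change of -0.27. Dnmt3l, a cofactor of the de novo DNA methyltransferases, fell by 1.92 (SE 0.264, adjusted p = 3.14e-05), and the Nodal antagonist Lefty2 by 1.27 (SE 0.267, adjusted p = 0.00218). Mybl2, a cell cycle transcription factor, fell by 1.14, and the TGF-beta family ligand Gdf3 by 1.13. Without WT J1 day 3 replicate 2, in which all of these 4 read lowest, only Dnmt3l kept its call. The changes of the other genes were then -0.96 for Lefty2, -0.98 for Mybl2 and -0.89 for Gdf3. Utf1, Sall4, Zscan10, Zfp281 and Lin28a had differences between -0.07 and 0.13.

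Naive pluripotency genes fell as a group. Of 24 members, all measured, 22 fell, 0 rose, and the change of every one was negative, with a median of -1.61. The exceptions were Manba, at -0.96 (adjusted p = 0.000209) just under the 2-fold minimum, and the ubiquitin ligase gene Mkrn1 at -0.15. The mean over the list was 7.73 to 8.86 in the day 3 arrays and 9.83 to 10.28 in the day 0 arrays. Lowest of the day 3 arrays was WT J1 replicate 2, for 21 of the 24 genes. Without it the median was -1.48 and 20 genes were called, as many as without WT V6.5 day 0 replicate 1, and the other 6 arrays left out in turn gave 21 to 23.

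Zfp42 (REX1), the zinc finger protein used as a reporter of the naive state, read 8.48, 6.04, 8.06 and 8.24 on day 3 against 10.54, 10.98, 10.05 and 10.04 on day 0. Every day 3 array lay below every day 0 array, the lowest one under the olfactory receptor 95th percentile, and it fell by 2.70 (SE 0.357, adjusted p = 2.20e-05). Fbxo15, a target of OCT4 and SOX2, read 8.14, 6.54, 8.12 and 8.42 on day 3 against 10.82, 10.79, 10.14 and 10.30 on day 0, and fell by 2.71 (SE 0.286, adjusted p = 1.85e-06). Esrrb, an orphan nuclear receptor of the naive network, read 8.81, 7.01, 9.38 and 9.58 on day 3 against 10.60, 10.84, 11.46 and 11.32 on day 0, and fell by 2.36 (SE 0.287, adjusted p = 8.48e-06). In all of these the J1 arrays of day 3 differed more from each other than the V6.5 arrays did.

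Other transcription factors of the naive network fell by less. Nr0b1 fell by 2.14, Nr5a2 by 2.08, Tfcp2l1 by 1.94, Klf5 by 1.51, Gbx2 by 1.27, Klf2 by 1.20, Tbx3 by 1.11 and Prdm14 by 1.09. Tet2, which oxidises 5-methylcytosine, fell by 1.82 (SE 0.187, adjusted p = 1.35e-06), and Zfp57, which keeps imprints methylated, fell by 1.70 (SE 0.126, adjusted p = 1.99e-08). Dppa5a, an RNA-binding protein of ESCs, was still at 11.09 to 12.05 on day 3, against 12.46 to 12.91 on day 0. Jam2, an adhesion molecule on this list, fell by 2.53.

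The promoter of Zfp42 is shown because its upstream sequence holds the octamer bound by OCT-family factors, printed in capitals as the reverse complement of ATGCAAAT. The 150 bases lie at chr8:43307110-43307259 on the minus strand of GRCm38.p6 (RefSeq), and the octamer begins 186 bases before the start site.
Zfp42 promoter: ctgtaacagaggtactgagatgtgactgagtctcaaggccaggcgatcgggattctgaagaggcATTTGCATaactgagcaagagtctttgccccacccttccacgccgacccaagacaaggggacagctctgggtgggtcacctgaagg
The octamer was found on either strand in 1.90% of 15614 RefSeq promoters of measured genes (300 bases each), and in 5 of 168 promoters of genes that fell (2.98%). Among the naive genes that fell, Zfp42 was the only one of 14 with a promoter in the table to hold it.

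Of 18 measured members of the LIF and STAT3 list, 6 fell, 0 rose and 12 were not called, with a median of -0.52 and 5 positive changes. The receptor gene Lifr fell by 1.56 (SE 0.186, adjusted p = 6.99e-06) and Stat3 itself by 1.31 (SE 0.160, adjusted p = 9.00e-06). Il6st, which encodes the signalling partner gp130 of the receptor, stood at -0.87 (adjusted p = 0.00140), under 2-fold. The kinases Jak1 and Jak2 were not called, at 0.13 and 0.21.

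Among targets, Socs3, which encodes the feedback inhibitor of the pathway, read 8.03, 7.53, 7.69 and 7.79 on day 3, against 10.35, 10.38, 10.73 and 10.25 on day 0. Every day 3 array lay over 2 units below every day 0 array, and it fell by 2.66 (SE 0.202, adjusted p = 2.17e-08). A dimmer second probe set of Socs3 had a difference of -0.54 (adjusted p = 0.050). Klf4 read 8.44, 7.95, 8.57 and 8.31 on day 3 against 9.93, 10.25, 11.03 and 10.90 on day 0, and fell by 2.21 (SE 0.242, adjusted p = 2.52e-06). Bcl3, a nuclear cofactor of NF-kappaB, fell by 1.51 and the kinase gene Pim1 by 1.32. Junb and Pim3 stood at -0.73 and -0.69 and were not called.

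The Socs3 promoter is shown for its match to TTCNNNGAA, the palindrome bound by STAT dimers, in capitals. The 150 bases lie at chr11:117969442-117969591 on the minus strand of GRCm38.p6 (RefSeq), and the match begins 154 bases before the start site.
Socs3 promoter: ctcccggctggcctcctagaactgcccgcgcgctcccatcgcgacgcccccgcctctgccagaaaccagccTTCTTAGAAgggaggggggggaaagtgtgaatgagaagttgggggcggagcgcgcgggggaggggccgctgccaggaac
The palindrome was found in 8.99% of all promoters of measured genes, in 22 of 168 promoters of genes that fell (13.1%) and in 5 of 137 of genes that rose (3.65%). Among the 6 LIF pathway genes that fell, Socs3 was the only one with a match. The other motifs searched on both strands were the TCF/LEF type CTTTGAT, the SOX type CTTTGTT, the T-box type AGGTGTGA and the TATA box TATAAA. In genes that fell, genes that rose and all genes, the TATA box stood in 19.05%, 10.2% and 13.6% of promoters, the SOX type in 8.33%, 5.84% and 5.76%, the TCF/LEF type in 4.76%, 2.92% and 3.72%, and the T-box type in 1.79%, 0% and 1.31%.

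Of 26 measured members of the formative and primed epiblast list, 7 rose, 0 fell and 19 were not called. Of the changes, 21 were positive and 5 negative, and the median was 0.64. Fgf5, the growth factor that marks the epiblast after implantation, had the largest rise of any gene. It read 11.05, 10.57, 10.99 and 10.81 on day 3, against 8.18, 8.94, 7.21 and 8.19 on day 0, a rise of 2.72 (SE 0.300, adjusted p = 2.72e-06). All day 3 arrays lay close together and above all day 0 arrays. The zinc finger gene Sall2 read 9.52, 9.97, 9.90 and 9.61 on day 3 against 7.51, 7.28, 7.27 and 7.29 on day 0, a rise of 2.41 (SE 0.261, adjusted p = 2.30e-06).

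Dnmt3b, a de novo DNA methyltransferase, read 12.21, 12.13, 11.99 and 11.92 on day 3 against 10.99, 10.81, 10.47 and 10.69 on day 0, a rise of 1.32 (SE 0.209, adjusted p = 0.000152). Pou3f1 (OCT6), a POU factor of the primed state, rose by 1.33 (SE 0.132, adjusted p = 8.48e-07) and the kinase gene Pim2 by 1.54 (SE 0.273, adjusted p = 0.000456). Car14, a carbonic anhydrase, rose by 1.94, and the ligand gene Wnt8a by 1.12 (adjusted p = 0.0318). The Wnt8a call was lost, at adjusted p = 0.0539 to 0.142, without WT J1 day 3 replicate 1, WT J1 day 0 replicate 1, WT V6.5 day 3 replicate 1 or either WT V6.5 day 0 array. The homeobox gene Otx2 and the zinc finger gene Zic2 had all day 3 arrays above all day 0 arrays, at 0.89 (adjusted p = 0.364) and 1.03 (adjusted p = 0.142), and were not called. As for Sox2, the spread in this fit includes the day 7 arrays. With the 8 WT arrays of days 0 and 3 alone, 8 members of the list rose instead of 7. The FGF-responsive factors Etv4 and Etv5 stood at -0.52 and -0.39 and were not called.

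**Figure D2:**
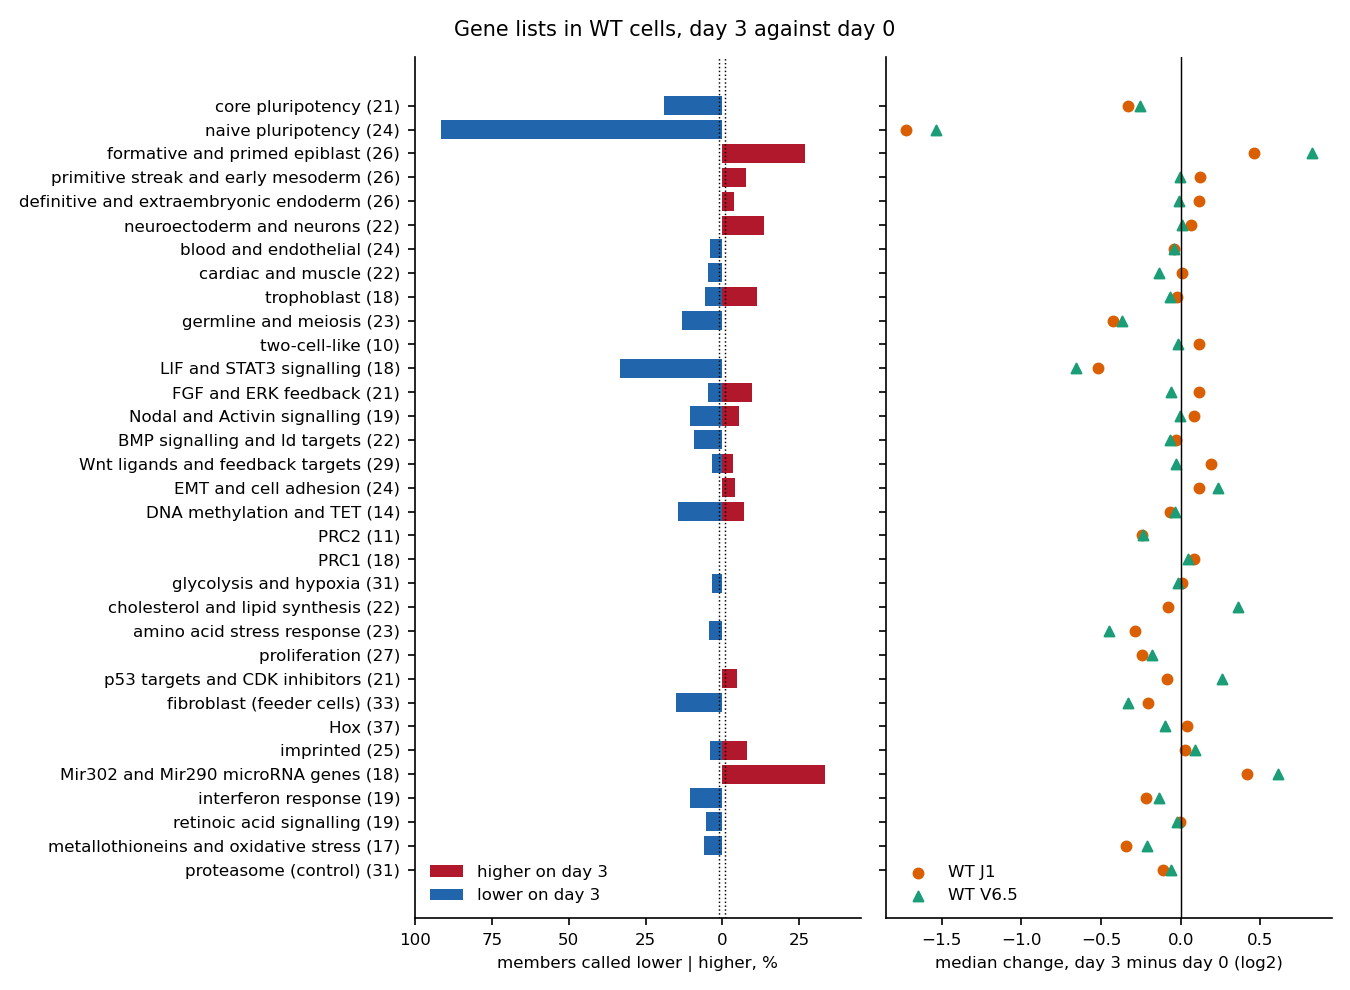
Gene lists in WT cells, with the number of measured members in brackets. The left panel gives the share of members called lower (bars to the left) and higher (bars to the right) on day 3, with dotted lines at the shares of all genes (1.09% and 0.953%), and the right panel the median change in J1 (circles) and V6.5 (triangles). The naive list has 91.7% of members lower, and the largest shares of members higher are those of the microRNA and the formative epiblast lists.

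Beyond the lists, the largest rises among genes whose arrays did not overlap were spread over several functions. The calcitonin receptor gene Calcr read 10.22, 10.36, 9.89 and 9.80 on day 3 against 8.31, 7.47, 7.01 and 7.32 on day 0, a rise of 2.54 (SE 0.155, adjusted p = 2.32e-09). The axonal kinesin Kif1a rose by 2.26, Prtg (protogenin) by 2.10 and Sema6a, a semaphorin, by 2.02. St6gal2, a sialyltransferase, rose by 2.19, the stress kinase Stk39 by 2.11, the carbonic anhydrase Car4 by 2.05 and the membrane protease Mmp25 by 1.91.

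The largest falls outside the naive list were Emp1, an epithelial membrane protein, and Bgn (biglycan), a proteoglycan of the extracellular matrix. Emp1 read 7.09, 7.09, 6.81 and 6.98 on day 3 against 10.13, 9.79, 10.22 and 10.01 on day 0, and fell by 3.05 (SE 0.262, adjusted p = 1.30e-07). Bgn read 6.63, 6.62, 6.29 and 6.70 on day 3 against 9.68, 8.73, 10.21 and 9.44 on day 0, and fell by 2.95 (SE 0.289, adjusted p = 8.48e-07). Platr8, a noncoding RNA of ESCs, fell by 2.70, the hydroxysteroid dehydrogenase gene Hsd17b14 by 2.50, the transcript AU018091 by 2.52, the matrix protease Mmp3 fell by 2.37 and Morc1, a germline gene of transposon silencing, by 2.36.

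Some fibroblast genes, markers of the feeder cells on which the ESCs were grown, fell in the same comparison. The labels give feeder depletion for the cells that formed EBs and not for the day 0 RNA. Of 33 measured fibroblast genes, 5 fell (15.15%, against 1.09% of all genes), 0 rose and the median was -0.24. Of all 33 changes 28 were negative, and 13 members had all day 3 arrays below all day 0 arrays, as 7.2% of all genes did. The list mean was 7.30 to 7.44 in the day 3 arrays and 7.73 to 7.93 in the day 0 arrays. S100a4 fell by 2.07, the smooth muscle actin Acta2 fell by 1.93, the homeobox gene Prrx1 by 1.54, the collagen crosslinking enzyme Lox by 1.31 and Thbs1 by 1.06. Lox was under the olfactory receptor 95th percentile in all 4 day 3 arrays, so its size is no exact fold. The collagen genes Col1a1, Col1a2 and Col3a1 stood at -0.26, -0.24 and -0.12 and were not called. The markers Col6a1, Col6a2, Thy1, Twist2 and Tagln, at -0.17, 0.10, -0.08, -0.18 and -0.02, were not called. Neither were Postn (-1.31), Dcn (-0.93) and Lum (-0.81), each with all day 3 arrays below all day 0 arrays. For these genes too the spread in the fit includes the day 7 arrays. Postn read 5.36 to 6.01 on day 3 against 6.53 to 7.32 on day 0, and Dcn 6.596 to 6.99 on day 3 against 7.57 to 7.97 on day 0. Lum was below the olfactory receptor 95th percentile in all 8 arrays and Postn in all 4 of day 3. In such bulk samples fewer cells of a type and less RNA per cell cannot be told apart, and the part of feeder cells in the falls of Emp1, Bgn, Mmp3 and Socs3 was not tested.

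MicroRNA genes of the Mir302 cluster, which is active in pluripotent cells and promotes cell cycling, rose. The array reads the precursor region and not the mature RNA. Of 271 measured microRNA genes with a mature sequence in the RefSeq table, 9 rose and 0 fell. These were Mir302a, Mir302b, Mir302c, Mir302d and Mir367 on chromosome 3, and Mir106a, Mir20b, Mir19b-2 and Mir363 on chromosome X. Their mature sequences (RefSeq, GRCm38.p6) are shown with the seed, bases 2 to 8, in capitals, because the clusters have 1 seed and 1 shorter run in common. The first 5 lines carry AAGUGC within bases 1 to 8 but not at 1 position. Their seeds differ between the clusters, and that of miR-302c-3p also differs from that of miR-302b-3p and miR-302d-3p. The seed AUUGCAC is the same in miR-367-3p and miR-363-3p, and the last line has a seed of its own.
miR-302b-3p: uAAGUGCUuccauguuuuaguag
miR-302c-3p: aAGUGCUUccauguuucagugg
miR-302d-3p: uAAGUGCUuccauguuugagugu
miR-20b-5p: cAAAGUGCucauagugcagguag
miR-106a-5p: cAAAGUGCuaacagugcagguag
miR-367-3p: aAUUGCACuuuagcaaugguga
miR-363-3p: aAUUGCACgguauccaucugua
miR-19b-3p: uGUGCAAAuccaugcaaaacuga
Mir302b begins the chromosome 3 cluster, with miR-302b-3p at chr3:127545275-127545297 and miR-367-3p at chr3:127545779-127545800 on the plus strand, and the X cluster runs on the minus strand, with miR-106a-5p at chrX:52742541-52742563 and miR-363-3p at chrX:52741697-52741718. Of 10 measured genes with AAGUGC in those bases, 5 rose, and of 6 with AUUGCAC, 2 rose. The 3p arm of Mir302a was not in the sequence table, so Mir302a could not be counted here.

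Mir302a read 8.09, 9.11, 6.69 and 7.54 on day 3 against 4.36, 7.64, 4.37 and 4.73 on day 0. Mir302d read 7.85, 9.35, 7.16 and 7.57 on day 3 against 4.76, 7.57, 4.82 and 5.32 on day 0. In both, WT J1 day 0 replicate 2 lay within the day 3 range and the other 3 day 0 arrays below it. Those 3 read under the olfactory receptor 95th percentile (6.33), as they did for Mir302b and Mir302c, so the sizes of the rises are no exact folds. The rises were 2.58 for Mir302a (SE 0.533, adjusted p = 0.00187) and 2.36 for Mir302d (SE 0.428, adjusted p = 0.000580), and without that array 3.28 and 2.93. Mir302c rose by 2.36 and Mir302b by 2.01, or by 3.19 and 2.75 without it. The Mir302b call was lost, at adjusted p = 0.0523 to 0.0531, without WT V6.5 day 3 replicate 2, WT J1 day 0 replicate 1 or WT V6.5 day 0 replicate 1. Mir363 averaged 7.71 on day 3 against 5.99 on day 0, Mir19b-2 6.95 on day 3 against 5.14 on day 0, Mir20b 6.57 on day 3 against 5.27 on day 0 and Mir106a 6.37 on day 3 against 5.21 on day 0. Mir367 averaged 5.53 on day 3 against 4.03 on day 0, both under that percentile. Of these 5, Mir363 was under it in 3 day 0 arrays and the others in all 4, so the sizes of their rises are no exact folds either. Mir17, Mir20a, Mir93 and Mir106b, with AAGUGC at other loci, stood at 0.36 to 0.52 and Mir350 at -0.11, and none of these was called. The protein-coding neighbour Larp7 of the Mir302 cluster stood at 0.04.

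Genes of the primitive streak were mostly not called by day 3. Of 26 measured members 2 rose (7.69%, against 0.953% of all genes), 0 fell, and the median was 0.01. Eomes, a T-box factor of streak and trophoblast, read 11.31, 10.24, 9.85 and 9.47 on day 3 against 7.02, 9.33, 8.32 and 8.16 on day 0. The days did not overlap, though WT J1 day 0 replicate 2 came near the lowest day 3 array, and the rise was 2.01 (SE 0.440, adjusted p = 0.00310). Fst, an antagonist of Activin, read 11.62, 9.96, 9.18 and 9.55 on day 3 against 8.17, 10.18, 8.07 and 8.57 on day 0. The days overlapped, and the rise of 1.33 (SE 0.397, adjusted p = 0.0279) lost its call, at adjusted p = 0.0537 to 0.142, without WT J1 day 3 replicate 1, WT V6.5 day 3 replicate 2, WT J1 day 0 replicate 1 or WT V6.5 day 0 replicate 1.

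Mixl1, a homeobox gene of the streak, varied more between arrays than between days. It read 11.33, 9.06, 7.49 and 7.51 on day 3 against 7.32, 9.79, 7.20 and 7.21 on day 0, with a change of 0.96 (SE 0.525, adjusted p = 0.286). WT J1 day 3 replicate 1 and WT J1 day 0 replicate 2 were high, and all V6.5 arrays were low on both days. In WT J1 day 0 replicate 2, 17 of the 26 streak genes had their highest day 0 level. Against replicate 1 it was higher by 3.64 for Mir302c, 2.48 for Mixl1, 2.31 for Eomes, 2.01 for Fst, 1.75 for Lhx1 and 1.55 for Wnt8a. Without it 228 genes rose and 202 fell.

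Other lineage lists had small numbers of members called, beside shares of all genes of 0.953% higher and 1.09% lower. Members higher made up 13.6% of the neuroectoderm list and 11.1% of the trophoblast list, or 3 and 2 genes. Endoderm had 1 of 26 higher (Lrp2, an endocytic receptor, 1.24). Neuroectoderm had 3 of 22 higher: Fabp7, a fatty acid carrier of radial glia, rose by 2.02, the RNA-binding protein gene Msi1 by 1.23 and Nes (nestin) by 1.03. The neuroectoderm markers Sox1, Pax6 and Zic1 stood at 0.01, -0.17 and 0.16 and were not called. The median of the list was 0.06, with 15 changes positive and 7 negative. Fabp7 differed between lines on both days, at 10.55, 10.91, 8.62 and 9.43 on day 3 against 8.93, 9.43, 6.55 and 6.52 on day 0, with both V6.5 arrays of a day below both J1 arrays. Blood and endothelium had 1 of 24 lower (Pecam1, also a naive ESC surface marker, -1.42) and cardiac and muscle 1 of 22 lower (Acta2). Trophoblast had 2 of 18 higher (Eomes, and the keratin gene Krt18 at 1.09) and 1 lower (Tfap2c at -1.23). The 37 Hox genes and 10 genes of the two-cell stage had 0 called, where 2.04% of all genes were. In the 8 arrays the list mean was 6.25 to 6.43 for Hox genes and 5.81 to 6.15 for two-cell genes. The first range holds the olfactory receptor percentile of 6.33 and the second lies below it. With lists this small and levels this low, 0 calls cannot tell whether these genes changed. Nes lost its call, at 0.85 to 0.96 and so under 2-fold, without either WT V6.5 day 0 array or WT V6.5 day 3 replicate 1. Krt18 lost its call, at adjusted p = 0.06 to 0.0804, without those 3 arrays or WT J1 day 3 replicate 2, and Tfap2c stood at -0.997 without the last of these.

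Germline genes had 3 of 23 members lower (13.04%, against 1.09% of all genes), 0 higher and a median of -0.40. Tex14, of germ cell bridges, read 6.84, 5.97, 6.80 and 6.58 on day 3 against 8.28, 8.36, 8.56 and 8.49 on day 0, and fell by 1.88 (SE 0.189, adjusted p = 1.11e-06). Mael, which silences transposons, fell by 1.32, and Prdm1, a regulator of germ cell fate, by 1.09. Prdm1 was under 2-fold without WT J1 day 3 replicate 2 (-0.88) or WT J1 day 0 replicate 2 (-0.90).

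Signalling lists gave single genes, where 0.953% of all genes rose and 1.09% fell. In lists this small, 1 call in a direction is no result about the list. In the FGF list of 21, Fgf5 and the ETS factor Etv1 (1.00) rose and Fgf4, the ligand made by naive cells, fell by 1.07. In the Nodal list of 19, Fst rose and Lefty2 and Gdf3 fell. In the BMP list of 22, the ligand gene Bmp4 fell by 1.41 (SE 0.227, adjusted p = 0.000184) and the antagonist gene Grem1 by 1.28. In the Wnt list of 29, Wnt8a rose, and Notum, which inactivates Wnt proteins, fell by 1.43 (SE 0.141, adjusted p = 8.48e-07). In the retinoic acid list of 19, the binding protein gene Crabp1 fell by 1.22. In the adhesion list of 24, the tight junction gene Cldn7 rose by 1.09. Without WT J1 day 3 replicate 2 the calls of Lefty2, Gdf3, Fgf4 (-0.94) and Cldn7 (0.95, adjusted p = 0.0544) were lost, and without WT V6.5 day 0 replicate 1 that of Fgf4 (-0.92). Etv1 stood at the 2-fold minimum and fell under it, at 0.944 to 0.995, without WT J1 day 3 replicate 1, WT V6.5 day 3 replicate 2 or replicate 1 of either line on day 0.

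Among chromatin genes, none of 11 PRC2 and 18 PRC1 members was called, where 2.04% of all genes were. In lists this small, 0 calls are near that share and are no result about these genes. The PRC2 median was -0.24, with Eed at -0.70, and Yaf2 of PRC1 at 0.84 (adjusted p = 0.000420) was its largest change. Of 14 DNA methylation genes, Dnmt3b rose, and Tet2 and Dnmt3l fell. Of 25 imprinted genes, Nnat (1.51) and Magel2 (1.28) rose and Phlda2 (-1.16) fell. Phlda2 was under 2-fold without WT J1 day 3 replicate 2 (-0.88) or WT J1 day 0 replicate 2 (-0.97).

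Metabolism and growth lists had few members called, where 0.953% of all genes rose and 1.09% fell. In lists this small, 0 calls or 1 call are no result about the list. Of 31 glycolysis and hypoxia genes, Pfkp, the phosphofructokinase of platelets, fell by 1.37. Of 23 amino acid stress genes, the asparagine synthetase gene Asns fell by 1.03, with a list median of -0.39. Of 17 metallothionein and oxidative stress genes, the glutathione peroxidase gene Gpx2 fell by 1.55. Of 19 interferon genes, the membrane proteins Ifitm1 and Ifitm3 fell by 1.25 and 1.28. None of 22 cholesterol genes and of 27 proliferation genes was called, though all 27 proliferation changes were negative, with a median of -0.21. Of all 19938 genes 10057 had a negative change. WT J1 replicate 2 was the lowest of the day 3 arrays for 18 of the 27 proliferation genes. Of 21 p53 target and CDK inhibitor genes, the antiproliferative gene Btg2 rose by 1.06. Without WT J1 day 3 replicate 2 the calls of Asns (-0.93), Ifitm1 (-0.92) and Btg2 (0.92) were lost, and so were those of Asns without WT J1 day 0 replicate 2 (-0.87) and of Btg2 without WT V6.5 day 0 replicate 2 (0.93). The 31 proteasome genes, a control list, had 0 called and a median of -0.09, and 25 of their changes were negative.

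The lines were compared next. In J1 alone 148 genes rose and 238 fell (1.94% of genes together), and in V6.5 alone 248 rose and 200 fell (2.25%). Of these, 86 rose and 114 fell in both lines, and 0 moved in opposite directions. The J1 count of 386 was 231 without WT J1 day 3 replicate 2. The change in V6.5 exceeded that in J1 for 137 of the 190 genes that rose, and the fall was larger in J1 for 141 of the 217 that fell. Both lines' array pairs entered the choice of these genes, so the counts describe them and are no test.

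**Figure D3:**
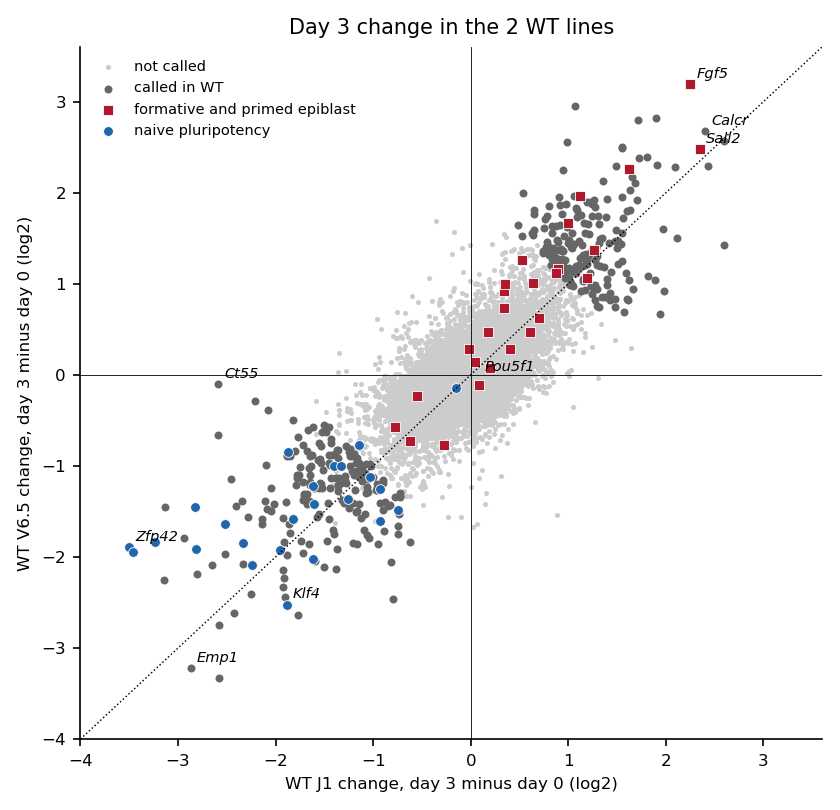
Change from day 0 to day 3 on the log2 scale in WT J1 (x axis) and WT V6.5 (y axis), 1 point a gene. Dark points are the 407 called genes, blue circles the naive and red squares the formative epiblast list, and the dotted line marks equal change. Zfp42 fell by 3.498 in J1 and by 1.89 in V6.5, and Ct55 fell in J1 only.

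When the difference of the 2 changes was itself tested, 1 gene was called (0.00502%), and 1074 had an unadjusted p under 0.05. Ct55, a cancer/testis gene on chromosome X, read 6.04 and 5.91 on day 3 against 8.13 and 8.996 on day 0 in J1. In V6.5 it read 5.50 and 5.84 on day 3 against 5.78 and 5.76 on day 0, below the olfactory receptor 95th percentile on both days. The difference, V6.5 minus J1, was 2.49 (SE 0.326, adjusted p = 0.00931). It lost its call without WT J1 day 3 replicate 2 (adjusted p = 0.119) and without WT V6.5 day 3 replicate 2 or either WT V6.5 day 0 array (0.0865 to 0.137), while 23 genes were called without WT J1 day 3 replicate 1. The larger falls of Zfp42 and Fbxo15 in J1 did not pass this test (adjusted p = 0.886 and 0.649).

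Levels on day 7 are given beside those of days 0 and 3 for the same genes, without a test, because the changes share the day 3 arrays. Of the 22 naive genes that fell, 16 were lower still on day 7, and 2, Pecam1 and Tbx3, read above their day 0 mean. Zfp42 averaged 10.40 on day 0, 7.71 on day 3 and 6.01 on day 7. All 7 formative genes that rose were lower on day 7 than on day 3, and 5 of them lower than on day 0, with Fgf5 at 8.13 on day 0, 10.85 on day 3 and 7.24 on day 7. Pou5f1 averaged 12.46 on day 0, 12.48 on day 3 and 8.68 on day 7. The 6 microRNA genes of the list that rose averaged 3.58 to 5.44 on day 7, under the olfactory receptor 95th percentile, and below their day 0 means. Without WT J1 day 0 replicate 2, Mir106a alone was below its day 0 mean, and Mir302a averaged 4.49 on day 0 and 5.04 on day 7. Over all genes, 131 of the 190 that rose were below their day 3 mean on day 7, 60 of them at or below day 0, and 131 of the 217 that fell were lower still.

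**Figure D4:**
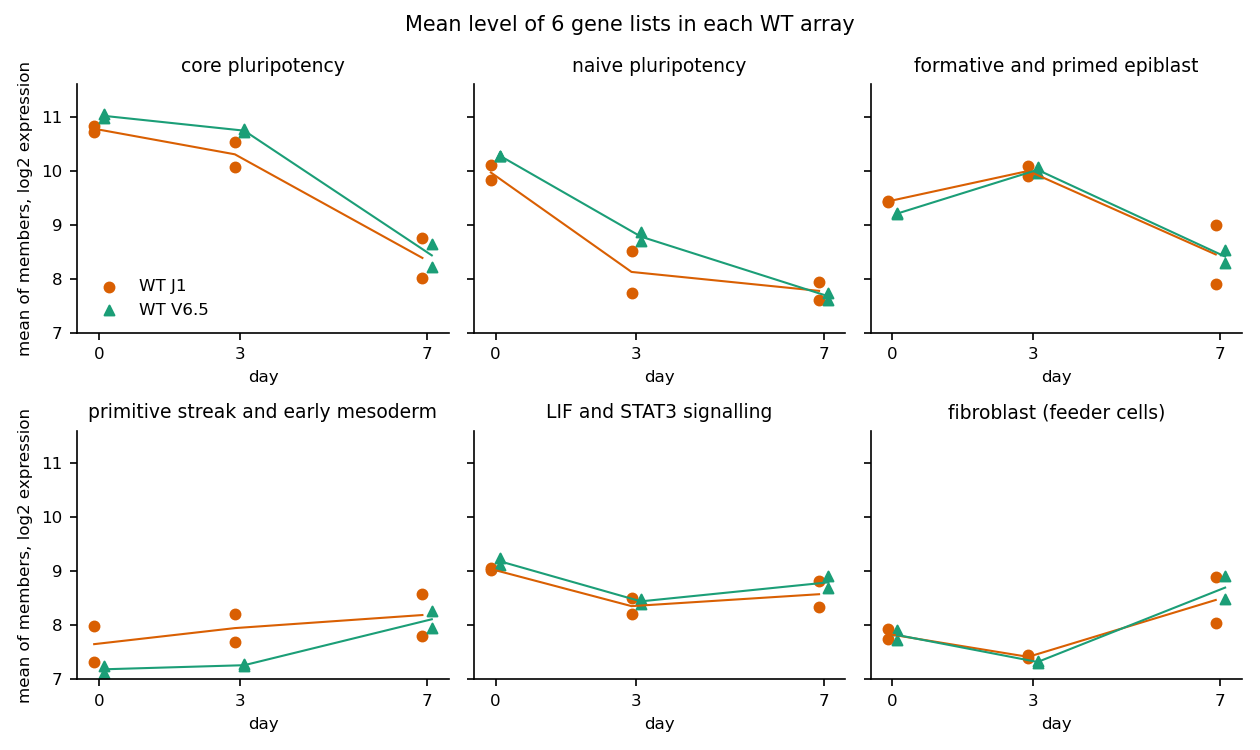
Mean log2 expression of the members of 6 lists (y axis) in each WT array by day (x axis). Circles are J1 arrays, triangles V6.5 arrays and lines join the means of a line. The formative list is highest on day 3, the naive list falls from day 0 to day 3, and the core list reads 8.01 to 8.75 on day 7.

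WT changes were then set against those of Eed KO cells over the same days. All 190 genes that rose in WT had a positive change in KO and 212 of the 217 that fell a negative one. These genes were chosen for their WT change, so a smaller KO value is not a finding. The naive list had a median change of -1.61 in WT and -0.81 in KO, and 23 of its 24 changes were lower in WT. None of these differences was called, Zfp57 coming nearest with a difference, WT minus KO, of -0.93 (SE 0.179, adjusted p = 0.0383). Formative genes had a median of 0.64 in WT and 0.47 in KO, and the fibroblast list -0.24 in WT and -0.53 in KO.

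A test of the difference called 14 genes (0.0702%), 8 with the change higher and 6 with it lower in WT. In 1235 genes the unadjusted p was under 0.05. Meg3, an imprinted noncoding RNA, had a change of 0.80 in WT and -0.96 in KO, a difference of 1.76 (SE 0.278, adjusted p = 0.0101). Khdc3, an oocyte gene, had a change of -0.46 in WT and -2.04 in KO, a difference of 1.58 (SE 0.201, adjusted p = 0.000874). Tdrkh, a piRNA pathway gene, differed by 1.45, Tex13b by 1.25 and Atp1b2, a sodium pump subunit, by 1.22. The WT change of Tex13b was -0.03. Its 8 WT arrays of days 0 and 3 read 4.71 to 5.28, under the olfactory receptor percentile of 6.33. In KO Tex13b averaged 6.67 on day 0 and 5.39 on day 3. Khdc3 averaged 9.16 in KO against 7.17 in WT on day 0, and 7.12 in KO against 6.71 in WT on day 3. On day 0 Tdrkh and Atp1b2 were also higher in KO (7.42 and 8.91) than in WT (6.31 and 8.05). Meg3 was lower in KO on that day, at 8.03 against 10.23 in WT.

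Of the genes with the lower change in WT, 4 were also among the WT falls. Krt17, a keratin gene, read 6.66, 6.61, 6.43 and 6.71 on day 3 against 8.14, 8.45, 8.39 and 8.48 on day 0 in WT, and its change in KO was -0.22. The difference was -1.54 (SE 0.187, adjusted p = 0.000844). In KO, Krt17 averaged 6.80 on day 3 and 7.02 on day 0, so its KO level on day 0 lay nearer the WT values of day 3. The change of Nrp2, a semaphorin receptor, was -1.45 in WT and 0.20 in KO, that of the axon guidance gene Ntn1 -1.35 in WT and 0.23 in KO, and that of Ifitm1 -1.25 in WT and 0.33 in KO. On day 0 Ntn1 averaged 7.97 in KO against 9.45 in WT. Nrp2 averaged 9.32 in KO against 9.28 in WT on that day, and Ifitm1 12.4 in KO against 12.6 in WT. Ltb, a TNF family ligand, had a change of -0.10 in WT and 1.06 in KO. When the 2 arrays of a line and day were averaged before the limma fit, 0 genes were called. The count was 6 to 8 without WT J1 day 3 replicate 2, WT J1 day 0 replicate 2 or any 1 of the 4 V6.5 arrays. Meg3, Khdc3, Krt17 and Ltb were called whichever of the 8 WT arrays was left out. Ifitm1 lost its call without WT J1 day 0 replicate 2 (adjusted p = 0.0608). Tdrkh and Tex13b lost theirs without any array but WT J1 day 3 replicate 1 (0.0506 to 0.131), and Atp1b2 without any but WT V6.5 day 3 replicate 2 and WT J1 day 0 replicate 1 (0.0573 to 0.107). Nrp2 lost its call without any array but WT J1 day 3 replicate 1 and WT V6.5 day 0 replicate 1 (0.0674 to 0.168), and Ntn1 without any but replicate 1 of WT J1 on day 3 and day 0 (0.0885 to 0.145). With clone as a random block 10 genes were called, and Tdrkh (adjusted p = 0.193) and Atp1b2 (0.0847) lost their calls. Ntn1 lost its call with the replicate block (adjusted p = 0.0575), and with a variance trend and robust prior so did Nrp2 (0.0679) and Ntn1 (0.0520). Genotype and line cannot be told apart for V6.5 and E14, which each stand in 1 genotype.

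**Figure D5:**
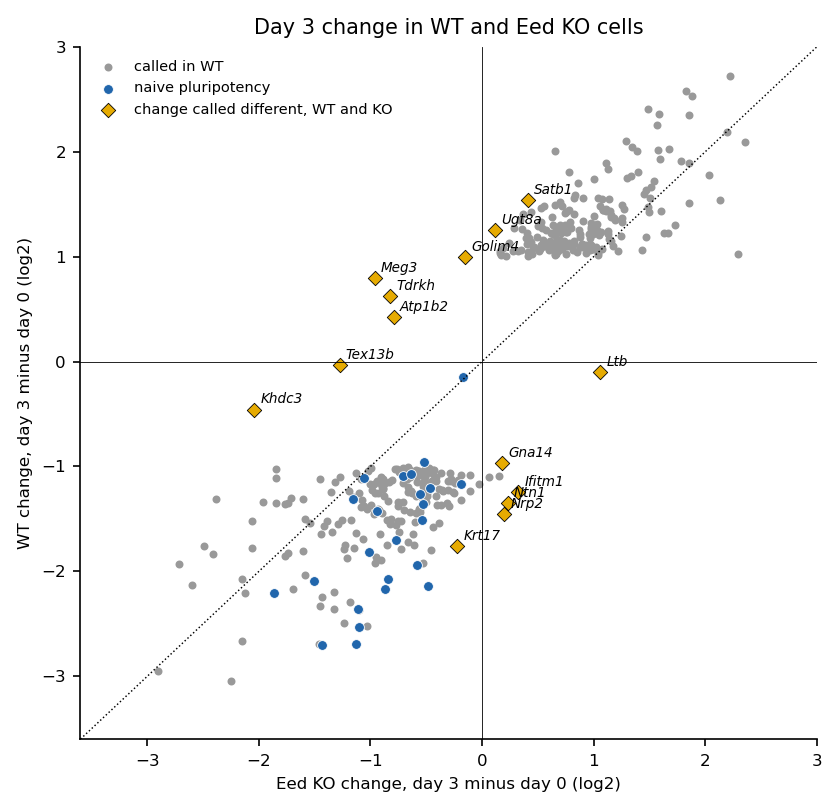
Change from day 0 to day 3 in Eed KO cells (x axis) and WT cells (y axis), log2 scale. Grey points are the 407 genes called in WT, blue circles the naive list, yellow diamonds the 14 genes whose change differed between genotypes, and the dotted line marks equal change. Nearly all blue points lie below the line, and Meg3, Khdc3 and Krt17 lie among the farthest from it.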

How the data were processed

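Total RNA was measured on Affymetrix Mouse Gene 1.0 ST arrays. The deposited log2 values per probe set came from RMA in Affymetrix Power Tools, according to the submitters' processing notes, and versions, build and annotation were not given in the sources used. RMA subtracts background, equalises the distributions of the arrays and combines the probes of a set, so it removes shifts common to all genes and compresses changes near background. Arrays give no counts, and their number limits the precision.

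Of 35556 probe sets, 21789 had 1 gene symbol, 1621 had several and 12146 were not listed in the annotation table; 19938 genes were tested, 999 of them represented by the probe set with the highest mean. The gene T is not analysed here. Names were updated through RefSeq (GRCm38.p6; 21698 probe sets matched). In limma 3.58.1 (R 4.3.3), all 24 arrays were fitted with clone as a fixed term and a day 3 and day 7 change for each genotype (16 residual degrees of freedom). Single lines and line differences came from 12 means of clone and day (12 degrees of freedom). P-values were adjusted over all genes (Benjamini-Hochberg). On simulated data, 98% of WT changes of 1.5 and 100% of changes of 2 (log2) were recovered, with 0 false calls. The simulated noise was normal, independent and of the size seen between repeat arrays, with the same change in both lines. These shares therefore do not hold for changes nearer 2-fold, for changes that differ between lines or for genes with a wider spread.

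The 33 gene lists and the genes in them were chosen with earlier results of these data known. Named genes were the 12 largest changes each way among called genes whose days did not overlap, and the 5 largest each way for differences between lines and genotypes. Up to 4 called members of each list, and Pou5f1, Nanog, Sox2, Zfp42, Klf4, Fgf5 and Eed, were also named. Other list members named as examples were chosen after their values were seen, as was the motif TTCNNNGAA. Alternatives are given with the closing section.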

Additional observations from a re-analysis of the deposited data

Results flagged for a closer look

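In groups of 4 arrays of the genes named, 14 of the 180 groups had 1 array far from the other 3 by Dixon's test, and chance flags about 1 in 20 groups. On day 3, WT J1 replicate 2 stood low for Fbxo15 (6.54, others 8.12 to 8.42), Ifitm1 (10.41, others 11.56 to 11.78) and Ntn1 (7.61, others 8.22 to 8.33), and WT J1 replicate 1 high for Nanog (12.001, others 10.96 to 11.06). WT V6.5 day 3 replicate 2 stood apart for Prtg (10.21, others 10.51 to 10.56), Grem1 (7.63, others 7.21 to 7.28) and Lox (5.70, others 6.13 to 6.17). On day 0, WT J1 replicate 2 was high for Mir302a (7.64, others 4.36 to 4.73) and Grem1 (8.77, others 8.57 to 8.59). WT J1 day 0 replicate 1 stood apart for Sall2 (7.51, others 7.27 to 7.29), Bmp4 (8.63, others 9.60 to 9.64), Asns (12.004, others 12.60 to 12.71) and Nanog (11.56, others 12.03 to 12.08). WT V6.5 day 0 replicate 2 was low for the proteasome gene Psma4 (11.03, others 11.18 to 11.20).

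The change differed between lines for Ct55 (2.49, V6.5 minus J1). It differed between genotypes, WT minus KO, for Meg3 (1.76), Khdc3 (1.58), Tdrkh (1.45), Tex13b (1.25), Atp1b2 (1.22), Golim4 (1.15), Ugt8a (1.14), Satb1 (1.13), Gna14 (-1.14), Ltb (-1.16), Krt17 (-1.54), Ifitm1 (-1.57), Ntn1 (-1.58) and Nrp2 (-1.65).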

How the results depend on the processing

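No named change reversed under any alternative run. Genes that rose and fell numbered 190 and 217, and 1351 and 1251 with no fold minimum, or 638 and 612 at 1.5-fold. The J1 count of 386 became 1267 with no fold minimum and 1067 at 1.5-fold, and the V6.5 count of 448 became 1236 and 1080. Leaving out 1 array at a time gave 168 to 228 that rose, 183 to 241 that fell, 231 to 514 in J1 and 312 to 450 in V6.5. The line difference, 1 gene, gave 5 genes with the 8 WT arrays only, 3 with the mean of the probe sets or the probe set of lowest mean, 0 to 23 without 1 array, and 5 without the WT J1 day 7 arrays, whose repeats correlated at 0.962. The genotype difference, 14 genes, gave 0 with repeat arrays averaged, 23 with no fold minimum and at 1.5-fold, 6 to 16 without 1 array and 25 without the WT J1 day 7 arrays. With a variance trend and robust prior, Fst (adjusted p = 0.0542) and Wnt8a (0.0551) lost their calls. With arrays averaged, Acta2 (adjusted p = 0.0737), Btg2 (0.0683), Krt18 (0.143), Phlda2 (0.0507), Prdm1 (0.0700), Tfap2c (0.0501) and Wnt8a (0.0940) lost their calls. A filter at a mean of 6 or more left 6 of the 18 microRNA genes of the list, 0 of them called. The causes were not tested. Replicate numbers were not treated as pairs in the main fit. The differences between repeats correlated at -0.397 to 0.47 (median 0.0569) over 66 pairs of groups, so no pairing was common to all groups. Whether some groups shared a batch was not tested. With the replicate block 190 rose, 216 fell, and 385 genes in J1, 453 in V6.5, 7 for the line difference and 13 for the genotype difference were called. With the WT J1 day 3 numbers crossed these were 190, 216, 390, 455, 7 and 13. The last 3 alternatives (no WT J1 day 7 arrays, crossed numbers, all probe sets in 1 fit) were chosen after seeing the data.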

Other observations

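Probe sets with no single gene, which the comparisons above leave out, were also fitted. Of 13767 such probe sets, 82 were called between day 3 and day 0 in WT cells, 30 higher and 52 lower.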
